A study of Mus musculus with 6 samples.

Results

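The genes described here encode nucleophosmins and histone chaperones: Npm1, Npm3, Asf1b, Chaf1a, Chaf1b, Asf1a, Hira, Nap1l1, Nap1l4 and Set. These 10 genes were taken by symbol from a table of 53342 mouse genes, which held all 10. Total RNA had been sequenced from 3T3L1 cells, an established mouse line of fibroblast-like cells that accumulate lipid droplets when induced with hormones, in 6 libraries that form 3 groups of 2. The LTK-14A group was differentiated with LTK-14A, which the submitters call a butyrylation inhibitor, the DMSO group with its solvent, and the untreated group with neither. Cells of all 3 groups shared the same induction, with insulin at 1 µg/ml, IBMX at 0.5 mM and dexamethasone at 1 µM for 2 days, followed by medium with insulin alone. No source used here states the dose of LTK-14A or when it was added. The labels do not say whether the 2 libraries of a group came from separate cultures. Each p-value thus rests on the spread between these libraries, pooled over the 3 groups and moderated with that of other genes. It may not cover the spread between cultures.

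Histone chaperones escort newly made or evicted histones and hand them to DNA or to one another. CAF-1, whose large and middle subunits are encoded by Chaf1a and Chaf1b, places H3-H4 on newly replicated DNA, and ASF1 passes H3-H4 to it; Asf1b is the ASF1 gene most tied to proliferating cells, and Asf1a the one that also serves HIRA. HIRA deposits the variant H3.3 without replication. The NAP family, here Nap1l1, Nap1l4 and Set, is named for a chaperone that binds mainly H2A-H2B, and SET also masks histone tails from acetyltransferases. Nucleophosmin, the product of Npm1, is an abundant nucleolar chaperone that binds core histones and takes part in ribosome assembly, and Npm3 encodes a smaller relative that pairs with it.

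Npm1 and Nap1l1 have processed copies elsewhere in the genome whose letters are close to those of the gene, and the table lists reads under both. The coding part of exon 9 of Npm1 (GRCm38, the assembly of mm10, chr11:33156003-33156104, minus strand, 102 bases) is shown beside the same stretch of 3 copies, from GENCODE vM21 transcripts, because it shows how alike gene and copies can be. It was the longest coding exon that could be placed on all 3 copies without gaps, and it is more alike than the whole alignments, which had 97.3% identity for Gm9118, 97.4% for Gm14681 and 95.1% for Gm5611. The copies lie at chr10:56497993-56498094 (plus strand, Gm9118), chrX:66778556-66778657 (minus strand, Gm14681) and chr9:17030684-17030785 (plus strand, Gm5611). Capitals mark the bases that differ from the gene.
Npm1: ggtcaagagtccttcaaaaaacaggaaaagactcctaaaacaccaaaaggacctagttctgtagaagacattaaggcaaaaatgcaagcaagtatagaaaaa
Gm9118: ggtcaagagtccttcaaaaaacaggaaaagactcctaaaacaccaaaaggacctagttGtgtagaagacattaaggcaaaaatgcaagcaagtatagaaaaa
Gm14681: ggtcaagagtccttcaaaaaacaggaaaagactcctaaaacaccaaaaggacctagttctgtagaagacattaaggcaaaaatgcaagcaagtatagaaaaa
Gm5611: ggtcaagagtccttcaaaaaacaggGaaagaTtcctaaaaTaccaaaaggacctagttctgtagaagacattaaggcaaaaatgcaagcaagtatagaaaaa

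Gm14681 had no difference from Npm1 over this exon, Gm9118 had 1 and Gm5611 had 3. For Nap1l1, the coding part of exon 9 (chr10:111492842-111492981, plus strand, 140 bases) is set beside the same stretch of Gm4204 (chr1:135232766-135232905, plus strand), and it holds 1 difference. This exon was chosen because it holds a difference.
Nap1l1: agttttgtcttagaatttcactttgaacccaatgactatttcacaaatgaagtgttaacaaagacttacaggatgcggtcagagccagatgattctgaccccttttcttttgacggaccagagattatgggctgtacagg
Gm4204: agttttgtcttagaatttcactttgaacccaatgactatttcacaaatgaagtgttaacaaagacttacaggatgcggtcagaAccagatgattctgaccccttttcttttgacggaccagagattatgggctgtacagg

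Values are normalized values per gene, back-transformed from the deposited scale, and the 6 libraries summed to between 6122687 and 7091007 of them. The most frequent low value above 0 in a library, here called a step and taken to stand for 1 read, ranged over 1.11 to 2.29. Values below a step also occurred, and values were not all whole numbers of steps. The sums came to 3571915 and 2738469 steps in LTK-14A libraries, 2854133 and 2807716 in DMSO libraries, and 5340799 and 6385419 in untreated libraries. One library stood apart, untreated replicate 2: the loci Gm26917 and Gm42418 took 16.4% of its sum, and between 8.60% and 10.7% of the sums of the other 5 libraries. The labels describe the cells of every group as turned into adipocytes. All 10 genes of a list of mature adipocyte markers (Adipoq, Fabp4, Plin1 and others) were above 0 in DMSO and untreated libraries, and all 10 were lower in the LTK-14A group than in the DMSO group (limma adjusted p under 0.05), in the reported fit and in each of the 14 other settings. Their summed value was 3756 and 4375 in LTK-14A libraries, 37047 and 35929 in DMSO libraries, and 42956 and 32074 in untreated libraries. Lep, a defining marker of this list, was listed at 0 in LTK-14A replicate 1 and was above 0 in each other library.

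The 10 fibroblast markers summed to 119573 and 124791 in LTK-14A libraries, 70339 and 76242 in DMSO libraries, and 74028 and 115810 in untreated libraries. Most of each sum came from Col1a1, Col1a2 and Fn1. In LTK-14A against DMSO 4 were called higher and 0 lower, beside 3.98% higher and 6.58% lower over all genes. Pdgfra (-0.26), Pdgfrb (-0.13) and Ly6a (-0.27) had log2 differences in the other direction and were not called. Cd34 was at or near 0 in every library. Of 8 markers of other cell types, Ptprc, Epcam and Cd3e were at 0 in every library. The 8 summed to 64.1 and 67.2 in LTK-14A libraries, 19.2 and 18.8 in DMSO libraries, and 17.8 and 12.7 in untreated libraries, most of it from Cd68, a lysosomal protein of macrophages and other cells. The part that these marker shifts have in the values below was not tested. In these bulk libraries, fewer cells of a type and less RNA per cell cannot be told apart.

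Across LTK-14A against DMSO, limma at an adjusted p under 0.05 called 2 of the 10 members, Npm1 higher and Asf1b lower. This is set against 10.6% of the 24139 genes tested in either direction, 3.98% higher and 6.58% lower. Against untreated cells, 4 of 10 members were called, Npm1 and Nap1l1 higher and Asf1b and Nap1l4 lower, with a background of 12.9% in either direction, 4.68% higher and 8.17% lower. DMSO against untreated gave 0 of 10 members with limma, on a background of 0.0249%; at an unadjusted p under 0.05 it gave 1 member, Nap1l4, and 5.83% of all genes. The libraries did not overlap for 7 of 10 members in LTK-14A against DMSO (54.3% of all genes), 5 of 10 in LTK-14A against untreated (53.6%) and 3 of 10 in DMSO against untreated (33.1%), and nothing is read from these counts. All 10 members passed the filter on low values. The median log2 fold change of the members was -0.11 in LTK-14A against DMSO, with -0.05 over all genes tested, and 0.01 in LTK-14A against untreated, with -0.03 over all genes. Both comparisons of LTK-14A share the same 2 LTK-14A libraries, so their results are not independent.

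**Figure D1:**
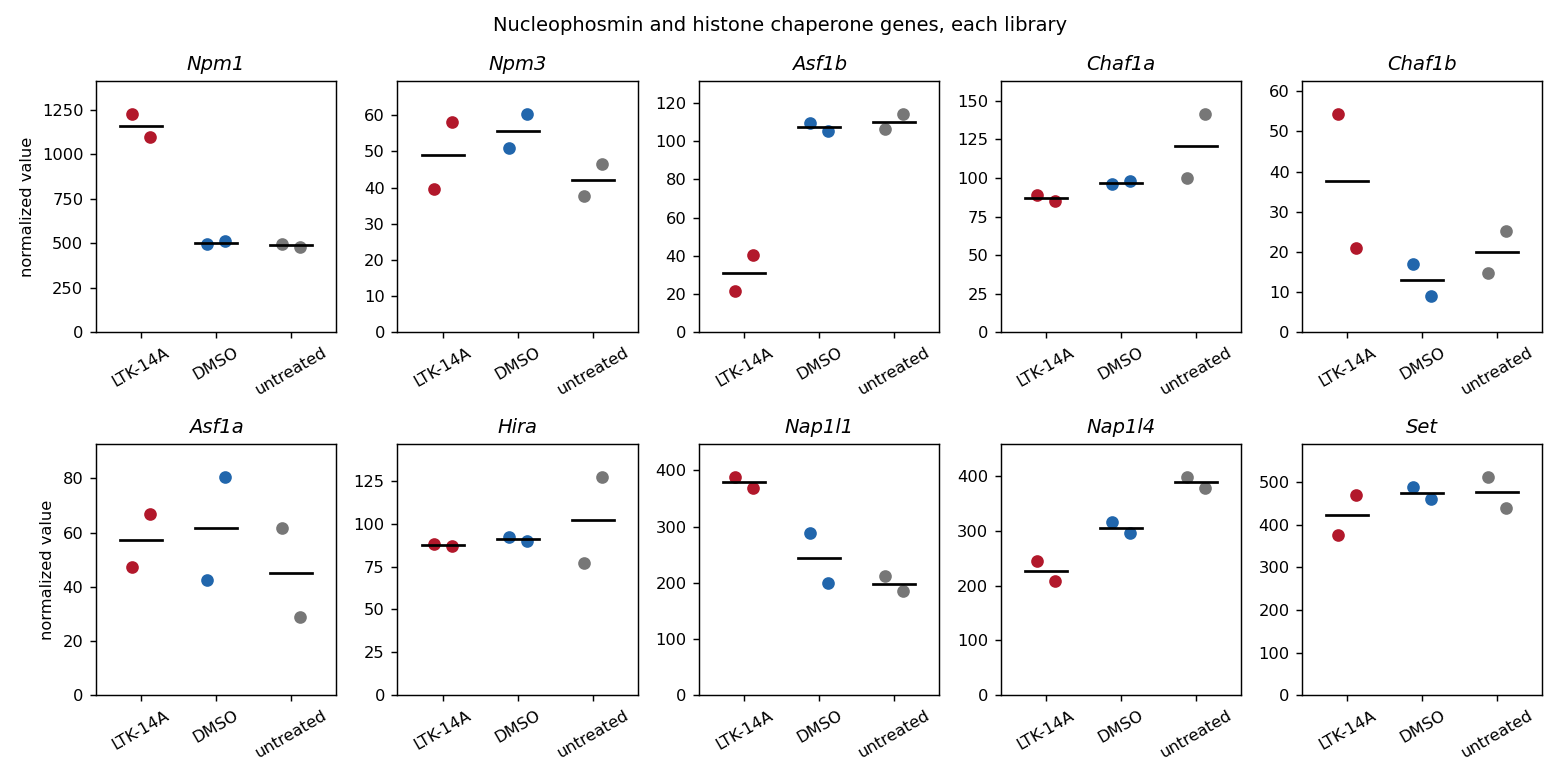
Normalized value (vertical axis, linear, from 0) of each of the 10 genes in LTK-14A, DMSO and untreated libraries; points are single libraries and bars are means of 2. Npm1 had 1226 and 1095 in LTK-14A libraries and between 478 and 511 in the other 4, while Asf1b had 21.6 and 40.6 in LTK-14A libraries and between 106 and 114 in the other 4.

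Npm1 (ENSMUSG00000057113, chr11:33152287-33163206, minus strand) was higher in both LTK-14A libraries than in any other. It had 1226 and 1095 in LTK-14A libraries, 494 and 511 in DMSO libraries, and 497 and 478 in untreated libraries. The LTK-14A values did not overlap with those of either other group, and the DMSO and untreated values overlapped with each other. The mean was 1160 ± 92.7 in the LTK-14A group, 502 ± 12.5 in the DMSO group and 488 ± 13.9 in the untreated group (SD, n = 2 each). On the log2(value + 1) scale Npm1 rose by 1.20 in LTK-14A against DMSO (SE 0.12, 95% interval 0.93 to 1.48, limma adjusted p = 0.00112), a fold of 2.30. Against untreated cells it rose by 1.25 (95% interval 0.97 to 1.52, limma adjusted p = 0.000829). The DMSO group differed from the untreated group by 0.04 (95% interval -0.23 to 0.32, limma adjusted p = 0.945). The call against DMSO held in each of 14 other settings, with adjusted p between 0.000537 and 0.0390.

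Beside Npm1 stood 9 pseudogenes with at least 90% identity to its coding sequence over at least 200 bases, of which 8 had a value above 0 in some library. Among the copies, the highest values were those of Gm9118 (97.3% identity over 765 bases) and Gm14681 (97.4% over 417 bases). In detail, Gm9118 had 750.4 and 659.5 in LTK-14A libraries, 298 and 236 in DMSO libraries, and 322 and 406 in untreated libraries. Gm14681 had 695 and 720.4 in LTK-14A libraries, 303 and 254 in DMSO libraries, and 293 and 314 in untreated libraries. Both copies thus stood higher in LTK-14A libraries than in the other 4, with no overlap. Npm1 and its copies together summed to 3112 and 2869 in LTK-14A libraries, 1253 and 1163 in DMSO libraries, and 1301 and 1331 in untreated libraries, and between 35.9% and 44.0% of this sum was listed under Npm1. Whether the authors' counting split reads between gene and copies is not given in the sources used here, so the level of Npm1 is uncertain. Npm1 came to 681.4 and 478.2 steps in LTK-14A libraries, which are not whole numbers of steps. Its copy Gm15484 had 1.13 in DMSO replicate 2, below the step of 2.26 there. Values that are not whole numbers of steps also occurred for a gene without a copy, Asf1b, with 17.7 steps in LTK-14A replicate 2. Whether reads were divided between genes was not tested. The rises of gene and copies are therefore not taken as independent results. With the copies added to the gene, the rise was 1.31 against DMSO (limma adjusted p = 0.000574) and 1.18 against untreated cells (limma adjusted p = 0.000764); this setting was chosen after the data were seen.

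**Figure D2:**
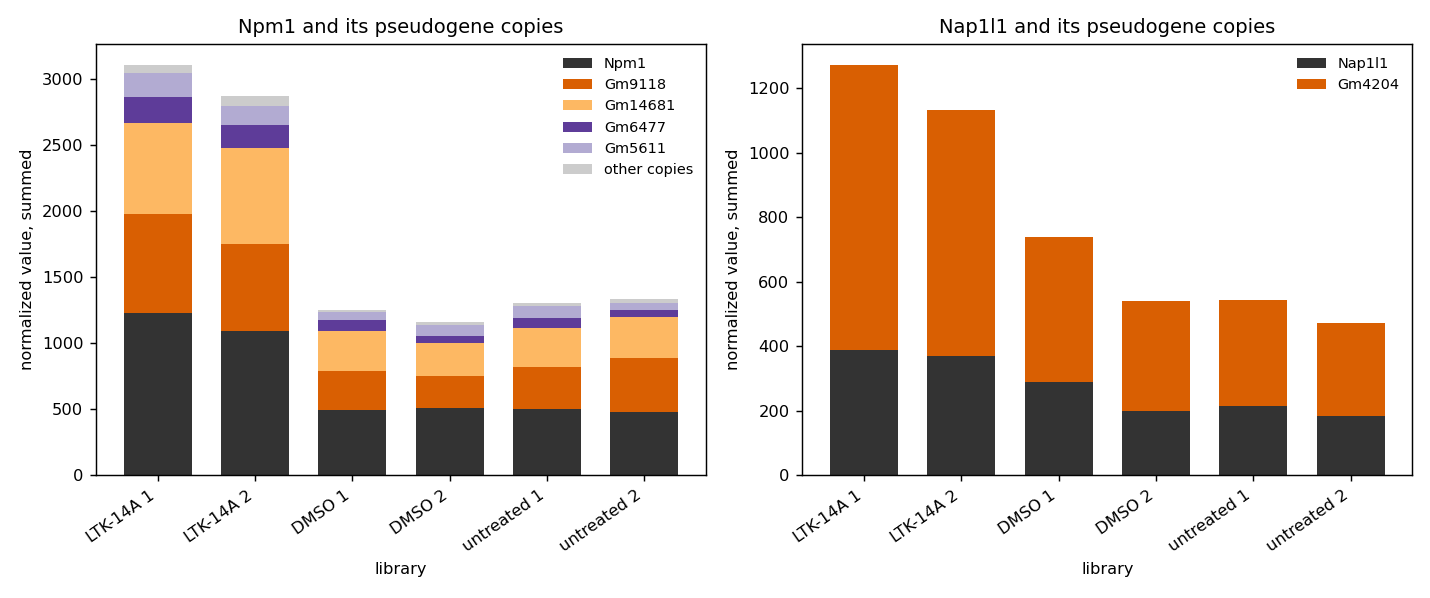
Stacked normalized values (vertical axis, linear, from 0) of Npm1 with its pseudogene copies, left, and of Nap1l1 with Gm4204, right, in each of the 6 libraries. The Npm1 stacks reach 3112 and 2869 in LTK-14A libraries and between 1163 and 1331 in the other 4. Gm9118, Gm14681 and Gm4204 are also highest in the LTK-14A libraries.

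Npm3 (ENSMUSG00000056209, chr19:45747734-45749591, minus strand) showed no such separation. It had 39.6 and 58.1 in LTK-14A libraries, 50.9 and 60.3 in DMSO libraries, and 37.6 and 46.4 in untreated libraries. LTK-14A and DMSO libraries overlapped, as did LTK-14A and untreated libraries. The log2 difference was -0.20 in LTK-14A against DMSO (95% interval -0.88 to 0.47, limma adjusted p = 0.709) and 0.20 in LTK-14A against untreated (95% interval -0.48 to 0.88, limma adjusted p = 0.705). These intervals leave room for a change in either direction. Its copy Npm3-ps1 (99.05% identity over 524 bases) had 34.3 and 22.5 in LTK-14A libraries, 15.0 and 11.6 in DMSO libraries, and 23.9 and 26.1 in untreated libraries. With this copy added, the difference from DMSO was 0.16 (limma adjusted p = 0.679), so its sign depends on where reads of the copy are placed. The ratio of the normalized value of Npm1 to that of Npm3 was 31.0 and 18.8 in LTK-14A libraries, 9.69 and 8.47 in DMSO libraries, and 13.3 and 10.3 in untreated libraries.

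Among the chaperones linked to replication, Asf1b (ENSMUSG00000005470, chr8:83955507-83970197, plus strand) was lower in both LTK-14A libraries. It had 21.6 and 40.6 in LTK-14A libraries, 109 and 106 in DMSO libraries, and 106 and 114 in untreated libraries. The other 4 libraries lay close together, and neither LTK-14A library reached them. The mean was 31.1 ± 13.4 in the LTK-14A group, 107 ± 2.65 in the DMSO group and 110.2 ± 5.73 in the untreated group (SD, n = 2 each). Asf1b fell by 1.82 on the log2 scale in LTK-14A against DMSO (SE 0.30, 95% interval -2.53 to -1.11, limma adjusted p = 0.0103), a fold of 0.283 on that scale. Against untreated cells it fell by 1.86 (95% interval -2.57 to -1.15, limma adjusted p = 0.00795), a call lost without the mean-variance trend (adjusted p = 0.0525). DMSO and untreated libraries overlapped (-0.04, limma adjusted p = 0.990). The call against DMSO was lost with limma without its mean-variance trend (adjusted p = 0.0593). It was also lost without LTK-14A replicate 1, without DMSO replicate 1 and without DMSO replicate 2. The log2 difference lay between -2.26 and -1.38 in the 14 settings. Several of these, such as the fit without the trend, leave the group means unchanged and cannot alter its sign. No other gene matched the coding sequence of Asf1b under the criteria used for copies. Asf1b came to 17.7 steps in LTK-14A replicate 2 and to fewer in LTK-14A replicate 1. Its level in the LTK-14A group thus rests on few steps, which limits how closely the size of the fall is known.

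The CAF-1 genes did not follow Asf1b in these tests. Chaf1a (chr17:56040416-56068026, plus strand), the large subunit, had 89.2 and 85.0 in LTK-14A libraries, 95.8 and 98.4 in DMSO libraries, and 100.1 and 142 in untreated libraries. Its LTK-14A libraries were the lowest without overlap, by a small margin: -0.16 against DMSO (95% interval -0.66 to 0.35, limma adjusted p = 0.702) and -0.45 against untreated (95% interval -0.95 to 0.06, limma adjusted p = 0.225). On the opposite strand, Ubxn6 overlaps 52.5% of the exon bases of Chaf1a; it had 219 and 233 in LTK-14A libraries, 250.5 and 265 in DMSO libraries, and 269 and 271 in untreated libraries. Whether strand was used in counting is not given in the sources used here, so reads of the 2 genes may have been mixed.

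Chaf1b (chr16:93883901-93906115, plus strand), the middle subunit, had 54.4 and 21.1 in LTK-14A libraries, 17.1 and 9.03 in DMSO libraries, and 14.9 and 25.2 in untreated libraries. LTK-14A and DMSO libraries did not overlap, but LTK-14A and untreated libraries did, and 1 LTK-14A library stood well above the other. The log2 difference was 1.38 in LTK-14A against DMSO (95% interval 0.06 to 2.70, unadjusted p = 0.0424, limma adjusted p = 0.171) and 0.78 in LTK-14A against untreated (limma adjusted p = 0.427), neither past the threshold. With 1 library left out, the difference from DMSO ranged over 0.72 to 2.04, the lowest without LTK-14A replicate 1 and the highest without LTK-14A replicate 2. Its values came to between 4 and 30.2 steps per library, which limits what can be seen at this depth. They were the fewest of the 10 genes in every library except LTK-14A replicate 1. In that library Asf1b, Npm3 and Asf1a had fewer steps than Chaf1b.

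**Figure D3:**
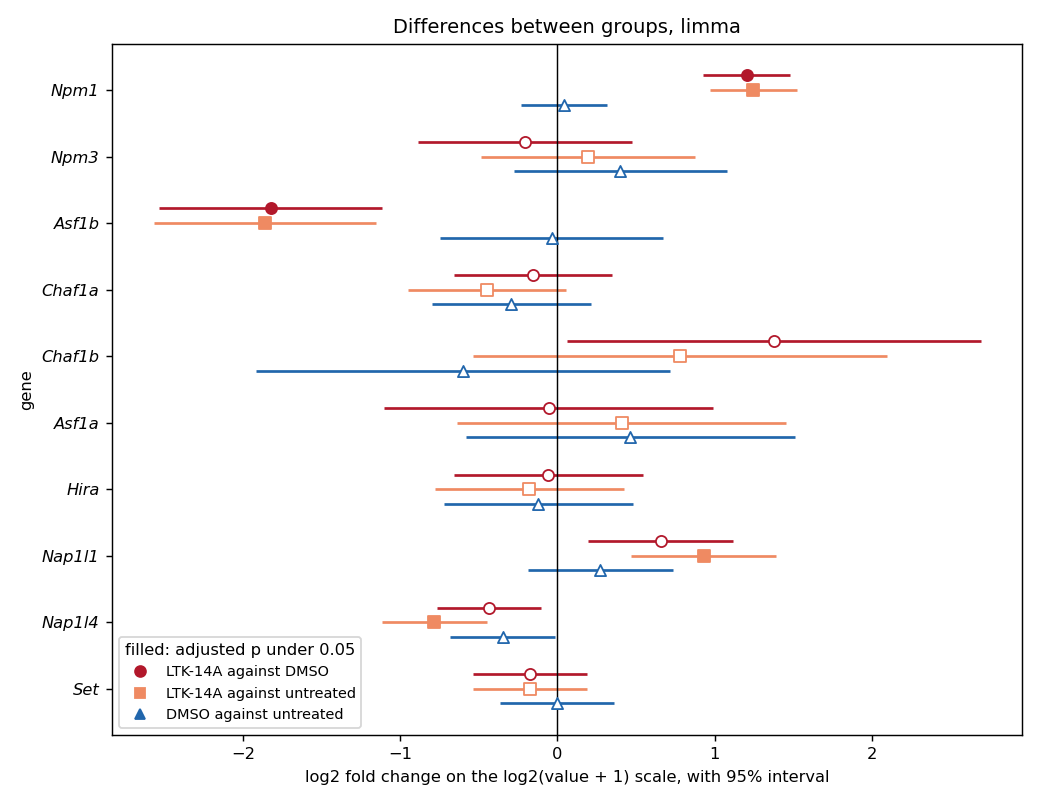
Log2 fold change (horizontal axis, on the log2(value + 1) scale) with its 95% interval for each gene in LTK-14A against DMSO, LTK-14A against untreated and DMSO against untreated; filled symbols have a limma adjusted p under 0.05. Npm1 at 1.20 and 1.25 and Asf1b at -1.82 and -1.86 were called in both comparisons of LTK-14A, and no symbol of DMSO against untreated is filled.

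Asf1a (chr10:53596757-53609225, plus strand), the paralog of Asf1b, varied as much within groups as between them. It had 47.3 and 67.1 in LTK-14A libraries, 42.4 and 80.7 in DMSO libraries, and 61.6 and 28.8 in untreated libraries, all 3 groups overlapping. The difference was -0.05 in LTK-14A against DMSO (95% interval -1.10 to 0.99, limma adjusted p = 0.969) and 0.41 in LTK-14A against untreated (limma adjusted p = 0.607). Mcm9, of the family of the replicative helicase, overlaps 48.1% of its exon bases on the opposite strand. Mcm9 had 30.9 and 58.7 in LTK-14A libraries, 69.9 and 77.1 in DMSO libraries, and 98.1 and 86.2 in untreated libraries, so the same doubt about strand applies. Asf1b over Asf1a, as a ratio of normalized values per exon length, was 0.710 and 0.941 in LTK-14A libraries, 4.01 and 2.03 in DMSO libraries, and 2.68 and 6.18 in untreated libraries. Asf1b thus stood below Asf1a per length in both LTK-14A libraries and above it in the other 4.

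Hira (chr16:18877037-18970309, plus strand) had 88.1 and 87.1 in LTK-14A libraries, 92.4 and 90.0 in DMSO libraries, and 77.2 and 128 in untreated libraries. LTK-14A and DMSO libraries were separated by a narrow margin, with a log2 difference of -0.06 (95% interval -0.66 to 0.54, limma adjusted p = 0.928), and both lay within the spread of the untreated group. The protein-coding gene model Gm28539 shares 44.7% of the exon bases of Hira on the same strand, and reads of the 2 could not be told apart there. At Npm3 an antisense gene model, Gm15491, covers 7.08% of the exon bases.

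Of the NAP family genes, Nap1l1 was highest and Nap1l4 lowest in LTK-14A libraries. Nap1l1 (ENSMUSG00000058799, chr10:111473223-111498150, plus strand) had 389 and 369 in LTK-14A libraries, 289 and 199 in DMSO libraries, and 213 and 184 in untreated libraries. Both LTK-14A libraries were above the other 4. The log2 difference of 0.66 against DMSO did not pass the threshold (SE 0.20, 95% interval 0.20 to 1.12, limma adjusted p = 0.0792), and the rise of 0.93 against untreated cells did (95% interval 0.47 to 1.39, limma adjusted p = 0.0223). The call against untreated cells was lost in limma without LTK-14A replicate 1 (adjusted p = 0.157), without LTK-14A replicate 2 (0.125), without untreated replicate 2 (0.0674) and without the trend (0.112). Its processed copy Gm4204, with 99.8% identity over 1090 bases, was listed higher than the gene itself: 885 and 765 in LTK-14A libraries, 451 and 342 in DMSO libraries, and 330.0 and 286 in untreated libraries. Gene and copy summed to 1274 and 1134 in LTK-14A libraries, 740 and 540.4 in DMSO libraries, and 543 and 470.2 in untreated libraries. With the copy added, the difference was 0.93 against DMSO (limma adjusted p = 0.0166) and 1.25 against untreated (limma adjusted p = 0.00427), so the call against DMSO depends on where these reads are placed.

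Nap1l4 (chr7:143513579-143549106, minus strand) had 246 and 208 in LTK-14A libraries, 316 and 295 in DMSO libraries, and 399 and 379 in untreated libraries, and no group overlapped with another. The log2 difference of -0.43 from DMSO did not pass the threshold (95% interval -0.77 to -0.10, limma adjusted p = 0.101), while Nap1l4 fell by 0.78 against untreated cells (95% interval -1.11 to -0.45, limma adjusted p = 0.0123). Without LTK-14A replicate 1 the adjusted p of that fall was 0.0575, without LTK-14A replicate 2 it was 0.108 and without the trend 0.0904. DMSO libraries were lower than untreated libraries by 0.35 (unadjusted p = 0.0425, limma adjusted p = 0.804). Nap1l1 over Nap1l4, per exon length, was 0.982 and 1.10 in LTK-14A libraries, 0.567 and 0.417 in DMSO libraries, and 0.330 and 0.301 in untreated libraries, with no overlap between groups. This ratio leaves out Gm4204, so its level depends on where reads of that copy are placed.

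Set (chr2:30057378-30072577, plus strand) overlapped in all 3 groups, with 376 and 471 in LTK-14A libraries, 490.1 and 460.1 in DMSO libraries, and 514 and 439 in untreated libraries. Its log2 difference was -0.17 against DMSO (95% interval -0.54 to 0.19, limma adjusted p = 0.547) and -0.17 against untreated cells (limma adjusted p = 0.525). Of 11 pseudogenes like Set, Gm9531 (100% identity over 775 bases) held most reads, with 306 and 289 in LTK-14A libraries, 285 and 292 in DMSO libraries, and 286 and 244 in untreated libraries.

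**Figure D4:**
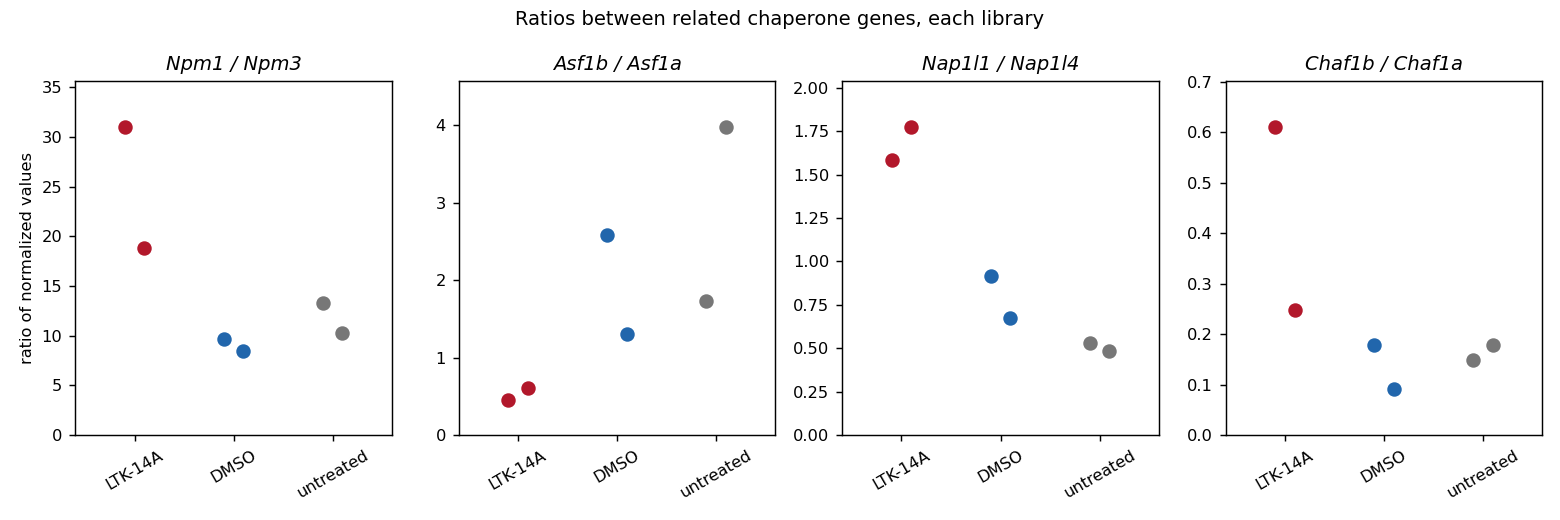
Ratio of normalized values (vertical axis, linear, from 0) between related genes in each library of the LTK-14A, DMSO and untreated groups. Npm1 over Npm3 was 31.0 and 18.8, Asf1b over Asf1a 0.456 and 0.605, and Nap1l1 over Nap1l4 1.58 and 1.77 in LTK-14A libraries. Chaf1b over Chaf1a, which rests on low values of Chaf1b, was 0.610 and 0.248 there. It was between 0.0918 and 0.178 in DMSO and untreated libraries. The other groups lie below the LTK-14A libraries for the nucleophosmin, NAP and CAF-1 ratios and above them for the ASF1 ratio.

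Per kilobase of exon, the mean level over the 6 libraries was 269 for Npm1, 113 for Set, 99.3 for Nap1l4, 54.8 for Nap1l1, 41.1 for Npm3 and 35.5 for Asf1b. Hira at 15.1, Asf1a at 15.0, Chaf1a at 11.5 and Chaf1b at 5.04 were lower. These levels leave out values listed under pseudogene copies. Between 30.5% and 39.2% of the sum of Nap1l1 and its copies was listed under Nap1l1, and Nap1l4 had no such copy. The order of Nap1l1 and Nap1l4 therefore depends on where these reads are placed. The range of Npm1 over libraries, 179 to 460.1, lay above that of every other member, whereas Set (92.5 to 126) and Nap1l4 (67.2 to 129) overlapped, as did Hira, Asf1a and Chaf1a.

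The replication-linked genes and the nucleophosmins were also set apart as classes, by the mean log2(value + 1) of Asf1b, Chaf1a and Chaf1b minus that of Npm1 and Npm3. This difference was -2.21 and -2.57 in LTK-14A libraries, -1.47 and -1.90 in DMSO libraries, and -1.32 and -0.997 in untreated libraries. It was lower in both LTK-14A libraries than in the other 4. It was also lower in both DMSO libraries than in both untreated libraries, a comparison in which limma called no member. A separation between groups was thus not particular to LTK-14A. Each class held 1 called gene, Asf1b and Npm1, beside genes that were not called. Chaf1b went the opposite way to Asf1b, by 1.38 in LTK-14A against DMSO (limma adjusted p = 0.171). The members were chosen with earlier results known, so the class difference was given no test.

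Among 30 further histone chaperones, of which 29 were tested, 3 rose and 0 fell in LTK-14A against DMSO, where 3.98% of all genes were higher and 6.58% lower. The median log2 fold change was 0.03, with -0.05 over all genes. The nucleolar protein gene Ncl had 1924 and 1868 in LTK-14A libraries, 1324 and 1249 in DMSO libraries, and 1240 and 1423 in untreated libraries (0.56 against DMSO, limma adjusted p = 0.0244). Rbbp4, whose product is the small subunit of CAF-1 and also belongs to other chromatin complexes, had 814 and 832 in LTK-14A libraries, 584 and 580.3 in DMSO libraries, and 611 and 582 in untreated libraries (0.50, limma adjusted p = 0.0300). Thus 1 CAF-1 gene passed the threshold upward and the other 2 did not pass. Tspyl2, of the NAP superfamily, rose by 0.60 (limma adjusted p = 0.0494), and Ssrp1, a subunit of the H2A-H2B chaperone FACT, had 0.54 (limma adjusted p = 0.0572). Against untreated cells 3 rose, Ncl, Rbbp4 and Tspyl2, and 1 fell, Tonsl, which binds new H4 at forks. Over all genes 4.68% were higher and 8.17% lower there. The count of 3 against DMSO ranged over 0 to 5 in the 14 other settings, and copies were not searched for genes outside the 10 members.

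Replication and mitosis genes were read beside Asf1b. Of 40 genes of the replication fork, 0 rose and 3 fell in LTK-14A against DMSO, with a median of -0.21. Over all genes 3.98% were higher and 6.58% lower, with a median of -0.05, so the count of falls is near the background and nothing is read from it for the list. The helicase subunit gene Mcm7 had 131 and 117 in LTK-14A libraries, 189 and 214 in DMSO libraries, and 210.3 and 231 in untreated libraries (-0.70, limma adjusted p = 0.0337). Mcm5, of the same helicase, had 30.8 and 16.4 in LTK-14A libraries, 55.7 and 62.9 in DMSO libraries, and 83.3 and 87.5 in untreated libraries (-1.36, limma adjusted p = 0.0406). Pole2, a subunit of the leading-strand polymerase, had a log2 difference of -1.90 (limma adjusted p = 0.0472), and Rrm2, of ribonucleotide reductase, -1.15 (limma adjusted p = 0.0520). Of 20 mitosis genes 0 rose and 3 fell, Bub1b (-0.93), Ccnb1 (-1.44) and Bub1 (-1.57), with a median of -0.30. Over all genes the same 3.98% were higher and 6.58% lower, with a median of -0.05. Tpx2, next in this list by adjusted p, went the other way and was not called (0.67, limma adjusted p = 0.0608). It had 146 and 181 in LTK-14A libraries, 101 and 103 in DMSO libraries, and 109 and 124 in untreated libraries. The sliding clamp gene Pcna had 73.3 and 70.5 in LTK-14A libraries, 88.1 and 98.6 in DMSO libraries, and 88.8 and 99.7 in untreated libraries. Its LTK-14A libraries were below the other 4, and the log2 difference of -0.37 from DMSO was not called. Pcna was picked after its values were seen. The replication list did not move as one. Pold2 (0.76), Mcm6 (0.38), Rrm1 (0.31) and Mcm4 (0.26) had log2 differences from DMSO above 0 and were not called. These genes too were picked after their values were seen. Both counts of 3 fell to 0 under quantile normalization and, in the 14 settings, ranged over 0 to 3.

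Nucleolar genes were read beside Npm1. Of 35 genes of the nucleolus and ribosome biogenesis, 0 rose and 3 fell in LTK-14A against DMSO, and the median was -0.13. Over all genes 3.98% were higher and 6.58% lower, with a median of -0.05, so this count too is near the background. The list leaves out the nucleolar protein gene Ncl, counted with the further histone chaperones, which rose by 0.56 against DMSO (limma adjusted p = 0.0244). Rrs1, a ribosome assembly factor, had 57.6 and 56.1 in LTK-14A libraries, 112 and 117 in DMSO libraries, and 117 and 136 in untreated libraries (-0.997, limma adjusted p = 0.0168). Ubtf, a transcription factor of RNA polymerase I, fell by 0.92 (limma adjusted p = 0.0235) and Bop1, a factor of large-subunit processing, by 0.78 (limma adjusted p = 0.0314). Against untreated cells 1 of the 35 rose, Gnl3 (nucleostemin, 0.69, limma adjusted p = 0.0147), and 6 fell. Over all genes 4.68% were higher and 8.17% lower in that comparison. The count of 3 ranged over 0 to 4 in the other settings, with 0 without either LTK-14A or either DMSO library and without the trend. Of 8 genes for partners of nucleophosmin and Myc, 7 were tested and limma called 0 in any comparison, nor did any other setting call one in LTK-14A against DMSO or untreated. Myc had 239 and 221 in LTK-14A libraries, 229 and 262 in DMSO libraries, and 259 and 307 in untreated libraries. Max, its binding partner, had the smallest adjusted p of the list, 0.136, with a log2 difference of 0.38.

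**Figure D5:**
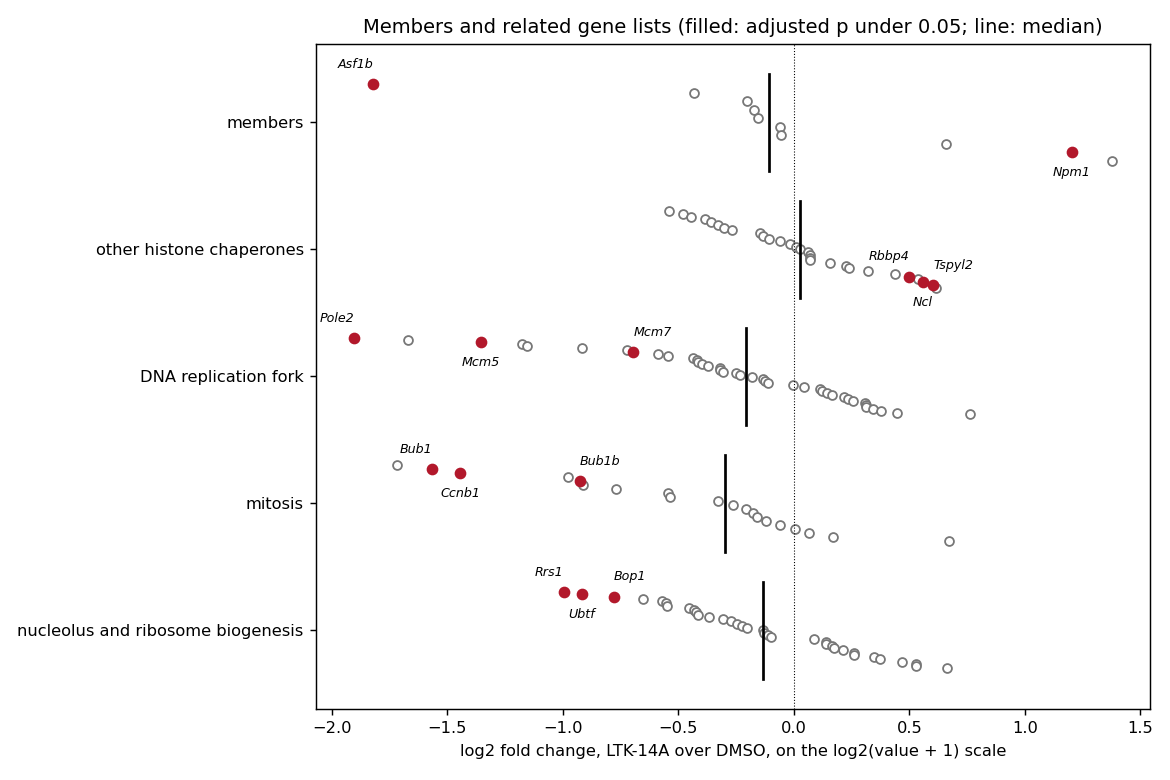
Log2 fold change (horizontal axis) in LTK-14A against DMSO of the 10 genes described and of 4 related lists; each circle is a gene, filled where the limma adjusted p was under 0.05, and the vertical line is the median of the list. Medians were -0.11, 0.03, -0.21, -0.30 and -0.13 from top to bottom, and Npm1 at 1.20 lay to the right of every called gene of the other lists.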

How the data were processed

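Total RNA was sequenced from 6 libraries, 2 in each of 3 groups named by the labels; ribosomal RNA had been removed with a stranded kit, per the labels' protocols. The authors deposited 1 value per gene and library, which is the log10 of a log2 normalized value, as inferred from the values themselves. The build mm10 comes from the submitters' processing notes. Aligner, counter, strand setting, annotation and normalization were not given in the sources used here. Values were turned back as 2 to the power of 10 to the value, with a deposited 0 kept as 0.

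Genes with at least 1 in at least 2 libraries (24139) were fitted as log2(value + 1) with limma 3.58.1 (R 4.3.3): 3 group means, a mean-variance trend, no replicate block, two-sided tests, Benjamini-Hochberg adjustment over all genes tested at 0.05. A fold change on this scale understates the change of low genes. Without read counts no count test was run and no counting interval is given. Copies were found with BLAST+ 2.17.0 against GENCODE vM21 transcripts (at least 90% identity over at least 200 coding bases). Gene identifiers matched vM21 for 53237 of 53342 genes, and 51269 had the same coordinates there, among them 9 of the 10 members; coordinates of genes are those deposited. Tables were made with Python 3.11.15, numpy 2.4.6 and pandas 2.3.3.

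The members and lists were chosen with earlier results of these data known. All members were named, up to 4 genes of each related list by the smallest adjusted p in LTK-14A against DMSO, and others where a count of 5 or fewer called for it. Alternatives were each library left out in turn, the compared groups alone, quantile normalization, scaling on a sum that omits ribosomal and small RNA loci, limma without its trend, a replicate block, no filter, a pseudocount of 0.1, and copies added to the gene, the last chosen after the data were seen.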

Additional observations from a re-analysis of the deposited data

How the results depend on the processing

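Of 420 values of the members under 14 alternatives, 387 kept direction and side of the threshold, 12 lost a call, 2 gained one and 19 changed sign, none of them a called value. Without the mean-variance trend limma called 1205 genes in LTK-14A against DMSO (2548 as reported), 1 of them a member, and 1387 in LTK-14A against untreated (3103), 1 of them a member. The compared groups alone gave 2044 genes in LTK-14A against untreated and 0 in DMSO against untreated, where a pseudocount of 0.1 gave 3. Leaving out 1 library each gave 591 to 3629 genes and 1 to 2 members in LTK-14A against DMSO, 867 to 4016 genes and 2 to 4 members in LTK-14A against untreated, and 0 to 109 genes in DMSO against untreated; a group left with 1 library is assumed to vary like the others. The causes of these changes were not tested. Settings that leave the group means unchanged, such as limma without its trend, cannot change the sign of a log2 difference. A direction kept under them is no separate result.

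The sign of a log2 difference under the threshold changed as follows. In LTK-14A against DMSO it became 0.12 for Asf1a and 0.077 for Hira under quantile normalization and 0.16 for Npm3 with its copy added; with a library left out, Npm3 ranged over -0.48 to 0.067 and Asf1a over -0.51 to 0.40. In LTK-14A against untreated, with a library left out, Npm3 ranged over -0.075 to 0.47, Asf1a over -0.13 to 0.95 and Hira over -0.54 to 0.18. In DMSO against untreated, Npm1 became -0.12 with its copies added, Asf1b 0.0053 under the scaling without ribosomal and small RNA loci, and Set 0.047 under quantile normalization, 0.042 under that scaling and 0.051 with its copies. With a library left out there, Asf1b ranged over -0.089 to 0.016, Asf1a over -0.072 to 1.00, Hira over -0.48 to 0.24 and Set over -0.11 to 0.11.

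Deviations of libraries with the same replicate number correlated at 0.05 between LTK-14A and DMSO, -0.02 between LTK-14A and untreated and 0.17 between DMSO and untreated over 13179 genes, so the numbers were not taken to pair the libraries. A replicate block gave 2635 genes in LTK-14A against DMSO and an adjusted p of 0.0449 for Nap1l1 there.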
